A study of Mus musculus with 8 samples.

Results

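Matrix metalloproteinases and the proteins that hold them in check were followed in fibro/adipogenic progenitors (FAPs), the mesenchymal progenitors of skeletal muscle. The 10 genes, given as a list, were the proteases Mmp2, Mmp3, Mmp11, Mmp14, Mmp19 and Mmp23 and the inhibitors Timp1, Timp2, Timp3 and Reck, out of 31053 genes in the count tables. All 10 were found by symbol. Their levels were read in all 8 samples, and the balance of summed protease mRNA over summed inhibitor mRNA was computed for each sample.

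FAPs came from the hind limb muscles of mdx mice (strain C57BL/10ScSn-Dmdmdx/J, 45 days old), which carry a mutation of the dystrophin gene. CD45- CD31- Integrin alpha-7- SCA-1+ cells were sorted by the amount of SCA-1 on their surface into 4 samples of SCA1-High-FAPs and 4 samples of SCA1-Low-FAPs, named as the control in the deposited design. The 8 samples came from 4 mice, and which samples share a mouse is not given in the sources used here. Both groups were then kept for 5 days in growth medium with fetal bovine serum before RNA was taken, so the values describe cultured cells from dystrophic muscle, with no wild type mouse beside them. The comparison asked how these cell states differ in mRNA. Because each sample is a bulk of cells, fewer cells that express a gene and less RNA of it per cell cannot be told apart.

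Metalloproteinases are zinc enzymes that cut collagens and other matrix proteins and release growth factors bound to the matrix. Most are made as inactive proenzymes, which are switched on by loss of the propeptide, and TIMPs block the active enzymes by filling the catalytic cleft. In muscle, this system takes part in the turnover of connective tissue during repair and fibrosis, and FAPs are a main source of matrix proteins there.

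The depth was 1880561 to 3985656 counts on genes per sample. A count of 0 allows up to 3 counts, and these limits cover counting error only. The counting left out reads aligned to several places. Their share was taken of the sum of entries on genes, on no gene, ambiguous and aligned to several places. It was 37.5 to 39.7% in SCA1-High-FAPs against 40.8 to 43.3% in SCA1-Low-FAPs, and the part of this gap in the results was not tested. Ly6a, the gene of SCA-1, went against the names of the groups. Its mean was 711 ± 184 CPM (SD, n = 4) in the SCA1-High group and 1087 ± 58.8 CPM in the SCA1-Low group (log2 fold change 0.61, SE 0.17, edgeR adjusted p = 0.0341), with no overlap. The groups are named by surface SCA-1 at the sort, Ly6a mRNA at the sort was not measured here, and every direction given below rests on the labels as deposited. CPM are counts relative to the sample's total over the tested genes, scaled between samples by TMM (trimmed mean of M values). All log2 fold changes are SCA1-Low-FAPs over SCA1-High-FAPs, and negative values mean a higher level in SCA1-High-FAPs.

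Of the FAP markers, Pdgfra had a mean of 222.7 and 167.6 CPM in the high and low groups and Dcn 590.2 and 139.7 CPM (adjusted p = 0.159 and 0.0167). Cd34 had 12.1 and 17.9 CPM, Lum 29.1 and 12.7 CPM (adjusted p = 0.52 and 0.116), and Pi16 was near 0. The 6 FAP markers, Ly6a included, summed to 1270.3 to 2027 CPM in the high group and 1324 to 1554 CPM in the low group, which overlapped. Of the markers of other cells, the satellite cell genes Pax7, Myf5, Myod1 and Myog were at 0 counts in every sample, as were the leucocyte genes Adgre1 and Itgam. The summed levels of the 6 leucocyte markers were 25.3 to 48 CPM in the high group and 12.5 to 19.3 CPM in the low group, mostly from Lyz2 (log2 fold change -1.42, adjusted p = 0.0153). The endothelial and Schwann cell sums stayed at or under 7.39 CPM, the satellite cell sum at or under 12.5 CPM, and the 4 tenocyte markers summed to 160.1 to 344 CPM against 299 to 398 CPM with no gene called. The 6 adipocyte markers were far from equal between the groups. Their summed level was 1051 to 5533 CPM in SCA1-High-FAPs against 119 to 640.1 CPM in SCA1-Low-FAPs, with 2 of the 5 tested (Adipoq and Lipe) differentially expressed and both higher in SCA1-High-FAPs. Replicate 1 of SCA1-High-FAPs had the highest sum. Of the 3 tested pericyte and smooth muscle markers, Cspg4 and Myh11 were higher in SCA1-Low-FAPs and Notch3 in SCA1-High-FAPs. The part of these cells in the results that follow was not tested.

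A gene was called differentially expressed when the edgeR adjusted p was under 0.05 and the log2 fold change was larger than 0.5 in either direction. Of the 10 genes, 9 passed the filter on low counts and 5 were differentially expressed, against 7.68% of the 10181 genes tested. Mmp11, Mmp19 and Mmp23 were higher in SCA1-High-FAPs, where 4.36% of tested genes were, and Timp1 and Timp3 were higher in SCA1-Low-FAPs, where 3.32% were. The samples of the groups did not overlap for 5 of the 9 tested genes, against 14.1% of all tested genes. The study had already reported Mmp11, Mmp19 and Mmp23 as higher in SCA1-High-FAPs from these data. It also measured Timp1 mRNA by real-time PCR in other cultures, and reported a rise after fibrogenic stimulation in SCA1-High-FAPs only. Because the genes were chosen with earlier results of these data known, the counts and shares are a description and not a test of the list. No protease was differentially expressed toward SCA1-Low-FAPs, and no inhibitor toward SCA1-High-FAPs, among those tested.

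**Figure D1:**
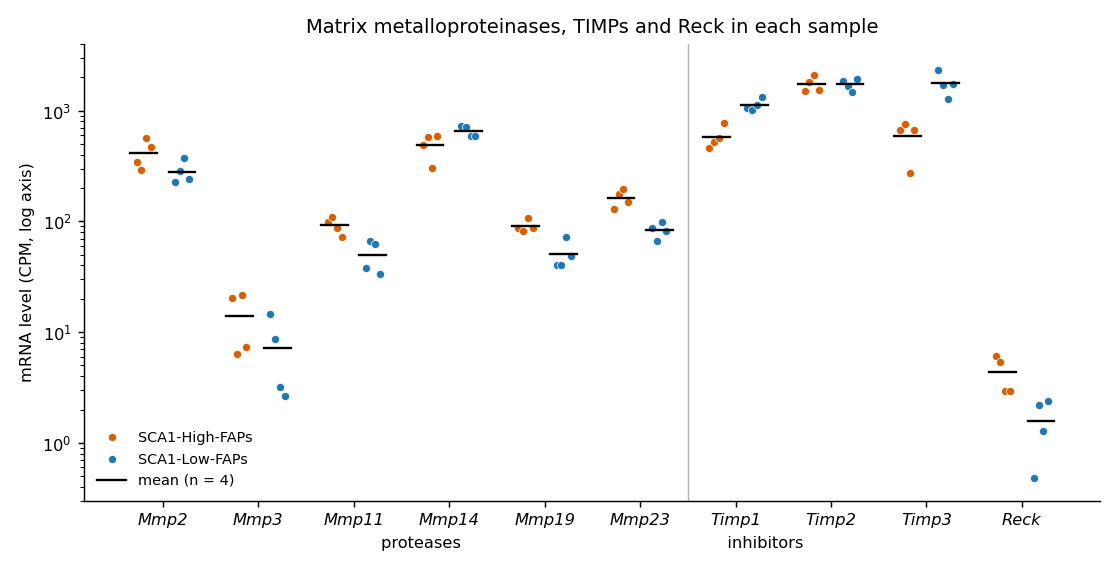
mRNA level of the 10 genes (CPM, log axis) in each of the 4 SCA1-High-FAPs samples and the 4 SCA1-Low-FAPs samples. Points are samples and bars are means. The points of the groups stand apart for Mmp11, Mmp19, Mmp23, Timp1, Timp3 and the low Reck, and mix for Mmp2, Mmp3, Mmp14 and Timp2.

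To place the promoters of these genes beside their levels, the 250 bases before each transcription start in RefSeq (GRCm38.p6) were read, which gave windows for 8 of the 10 genes. Mmp2 and Mmp19 had no entry. Of the 3 windows printed here, that of Mmp3 is the only one of all windows read with a match to the AP-1 site. Mmp23 was picked from the proteases higher in SCA1-High-FAPs and Timp1 from the inhibitors higher in SCA1-Low-FAPs. Their windows do not represent the other genes of those groups. Mmp23 has another start, whose window is not printed. Capitals mark matches on either strand to the AP-1 site, with the letters TGANTCA. They also mark the TATA box, searched as TATAAA. The GC box, searched as GGGCGG, is marked in the same way.
Mmp3, chr9:7445572-7445821, + strand: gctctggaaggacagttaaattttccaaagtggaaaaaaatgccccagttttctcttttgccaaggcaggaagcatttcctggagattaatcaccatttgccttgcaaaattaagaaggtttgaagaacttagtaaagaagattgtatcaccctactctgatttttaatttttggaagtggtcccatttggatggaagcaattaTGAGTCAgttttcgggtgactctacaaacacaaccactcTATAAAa
Mmp23, chr4:155653385-155653634, - strand: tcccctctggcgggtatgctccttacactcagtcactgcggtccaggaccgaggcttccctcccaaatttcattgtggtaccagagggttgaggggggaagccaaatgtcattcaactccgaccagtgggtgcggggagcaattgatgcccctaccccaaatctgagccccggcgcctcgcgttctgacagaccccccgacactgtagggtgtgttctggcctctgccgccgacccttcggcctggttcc
Timp1, chrX:20869916-20870165, + strand: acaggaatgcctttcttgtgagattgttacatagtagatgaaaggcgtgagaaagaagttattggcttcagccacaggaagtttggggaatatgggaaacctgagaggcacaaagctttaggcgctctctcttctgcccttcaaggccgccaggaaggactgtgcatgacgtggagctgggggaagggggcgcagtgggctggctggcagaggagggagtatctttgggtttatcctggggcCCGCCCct

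Mmp3 held 1 TGAGTCA, beginning 46 bases before the start, and 1 TATAAA, beginning 7 bases before it. TGANTCA stood in 6.75% of 32851 mouse windows of the same length and TATAAA in 12.4%. None of the other windows held either motif. Matches to GGGCGG, present in 32.7% of windows, numbered 2 in Mmp11, Mmp14 and Reck, 1 in Timp1, Timp2 and Timp3, and 0 in Mmp3 and Mmp23. The Mmp3 window had a GC content of 37.6%, against 61.2% for the printed window of Mmp23 and 54.4% for Timp1. A match is a description of the letters and not evidence that a factor is bound.

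Among the proteases, Mmp23 showed the change with the lowest p. Mmp23 (ENSMUSG00000029061, chr4:155650655-155653384, - strand) in GRCm38, the build of all gene positions given here, encodes a membrane-anchored metalloproteinase that proprotein convertases cut free. Its levels in SCA1-High-FAPs replicates 1 to 4 were 129, 175, 197 and 151 CPM. In SCA1-Low-FAPs they were 86.5, 65.9, 99.6 and 81.6 CPM. Every SCA1-High-FAPs sample was above every SCA1-Low-FAPs sample. The log2 fold change was -0.96 (SE 0.18, 95% interval -1.34 to -0.59, adjusted p = 0.00298).

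Mmp11 (ENSMUSG00000000901, chr10:75923222-75936496, - strand) encodes stromelysin 3, a secreted enzyme that furin activates inside the cell. The values were 98.9, 110.3, 87.7 and 71.9 CPM in SCA1-High-FAPs against 37.7, 65.9, 62.8 and 33.3 CPM in SCA1-Low-FAPs. The groups did not overlap, though the lowest SCA1-High-FAPs sample was near the highest SCA1-Low-FAPs sample. This gave a log2 fold change of -0.89 (SE 0.23, 95% interval -1.38 to -0.40, adjusted p = 0.0262). Chchd10, with at most 94 counts in a sample, shares exon positions with Mmp11 on the other strand, away from its 3′ end.

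Mmp19 (ENSMUSG00000025355, chr10:128790910-128800824, + strand) encodes a secreted metalloproteinase with basement membrane proteins among its substrates. The values were 86.6, 81.8, 107 and 88 CPM in SCA1-High-FAPs against 40.6, 40.8, 71.7 and 48.3 CPM in SCA1-Low-FAPs. Replicate 3 of SCA1-Low-FAPs was highest of its group and still below all SCA1-High-FAPs samples. The fit gave a log2 fold change of -0.84 (SE 0.21, 95% interval -1.28 to -0.40, adjusted p = 0.0187). An exon of Tmem198b lies on the other strand near the 3′ end of Mmp19, with at most 71 counts in a sample, and the strand setting of the counting is not given in the sources used here, so reads of the pair may be uncertain. The calls of Mmp11 and Mmp19 were each lost in 4 of the 8 fits that left out a sample. For Mmp11 these were the fits without replicate 1 or 2 of SCA1-High-FAPs or replicate 1 or 4 of SCA1-Low-FAPs (adjusted p 0.0645, 0.0828, 0.101 and 0.0922). For Mmp19 they were those without replicate 3 of SCA1-High-FAPs or replicate 1, 2 or 4 of SCA1-Low-FAPs (0.052, 0.0768, 0.0617 and 0.0595).

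The most abundant proteases were Mmp14 and Mmp2, and neither passed the test. Mmp14 (ENSMUSG00000000957, chr14:54431612-54445364, + strand) encodes MT1-MMP, the membrane-bound collagenase that activates pro-MMP-2 at the cell surface. Its levels were 492, 579, 304 and 593 CPM in SCA1-High-FAPs against 733, 706, 588 and 593 CPM in SCA1-Low-FAPs. The groups overlapped, with replicate 3 of SCA1-High-FAPs far below the rest. Its log2 fold change was 0.41 (SE 0.18, 95% interval 0.03 to 0.80, adjusted p = 0.201).

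Mmp2 (ENSMUSG00000031740, chr8:92827291-92853420, + strand) encodes gelatinase A, which degrades denatured collagen and collagen IV. Its values were 342, 288, 563 and 467 CPM in SCA1-High-FAPs against 226, 285, 374 and 239 CPM in SCA1-Low-FAPs. Replicates 3 and 4 of SCA1-High-FAPs were above all SCA1-Low-FAPs samples, while the others mixed. The log2 fold change was -0.56 (SE 0.21, 95% interval -1.0 to -0.12, adjusted p = 0.117). Mmp2 was differentially expressed without replicate 3 of SCA1-Low-FAPs, at -0.75 (adjusted p = 0.0308), and with no filter on low counts, at -0.55 (adjusted p = 0.0368).

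Mmp3 (ENSMUSG00000043613, chr9:7445822-7455975, + strand) encodes stromelysin 1, a secreted enzyme with broad substrates that also activates other proenzymes. It was the least abundant of the 6, at 20.2, 6.33, 21.7 and 7.33 CPM in SCA1-High-FAPs against 14.5, 8.71, 3.17 and 2.64 CPM in SCA1-Low-FAPs. Both groups held high and low samples, with 10 to 52 counts behind each value. The log2 fold change was -0.99 (SE 0.58, 95% interval -2.20 to 0.23, adjusted p = 0.354), and with this spread the wide interval spans no change and a change larger than that of Mmp23.

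Among the inhibitors, Timp3 had the largest fold change of the 9 tested genes. Timp3 (ENSMUSG00000020044, chr10:86300372-86349506, + strand) encodes the inhibitor that stays bound to the matrix and also blocks ADAM sheddases such as ADAM17. Its levels were 668.6, 754.5, 274.3 and 672.6 CPM in SCA1-High-FAPs against 2348, 1701, 1275 and 1736 CPM in SCA1-Low-FAPs. The groups were far apart, and replicate 3 of SCA1-High-FAPs was the lowest of all. The mean was 2.98 times as high in SCA1-Low-FAPs, with a log2 fold change of 1.57 (SE 0.29, 95% interval 0.93 to 2.22, adjusted p = 0.00878). Timp3 lies within Syn3, on the other strand, which had at most 3 counts in a sample. An exon of Syn3 lies near the 3′ end of Timp3. As the strand setting is not given, reads there may be uncertain.

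Timp1 (ENSMUSG00000001131, chrX:20870166-20874735, + strand) encodes a soluble inhibitor of most secreted metalloproteinases that is readily induced by cytokines and growth factors. Its levels were 464, 524, 562 and 767 CPM in SCA1-High-FAPs against 1057, 1014, 1118 and 1327 CPM in SCA1-Low-FAPs. All 4 SCA1-Low-FAPs samples exceeded all SCA1-High-FAPs samples. The mean was 1.95 times as high, with a log2 fold change of 0.96 (SE 0.16, 95% interval 0.62 to 1.31, adjusted p = 0.00185). Timp1, Timp3 and Mmp23 kept their calls in all 8 fits that left out a sample.

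Timp2 (ENSMUSG00000017466, chr11:118301069-118355740, - strand) encodes the inhibitor that links pro-MMP-2 to MT1-MMP. It was the most abundant of the 10 in SCA1-High-FAPs, at 1509, 1817, 2117 and 1524 CPM, and stood at 1843, 1667, 1477 and 1912 CPM in SCA1-Low-FAPs. The groups overlapped throughout. The log2 fold change was -0.01 (SE 0.15, 95% interval -0.33 to 0.30, adjusted p = 0.974), with a sign that turned in 4 of the 8 fits that left out a sample.

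Reck (ENSMUSG00000028476, chr4:43875530-43944806, + strand) encodes a membrane-anchored inhibitor of metalloproteinases. It was counted 13, 12, 7 and 8 times in SCA1-High-FAPs against 1, 4, 4 and 9 times in SCA1-Low-FAPs, or 6.12, 5.43, 2.92 and 2.93 CPM and 0.483, 2.18, 1.27 and 2.38 CPM. The CPM values did not overlap, yet the gene fell under the filter. With no filter, its log2 fold change was -1.39 (SE 0.94, edgeR adjusted p = 0.453), so a difference was not detectable at this depth.

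**Figure D2:**
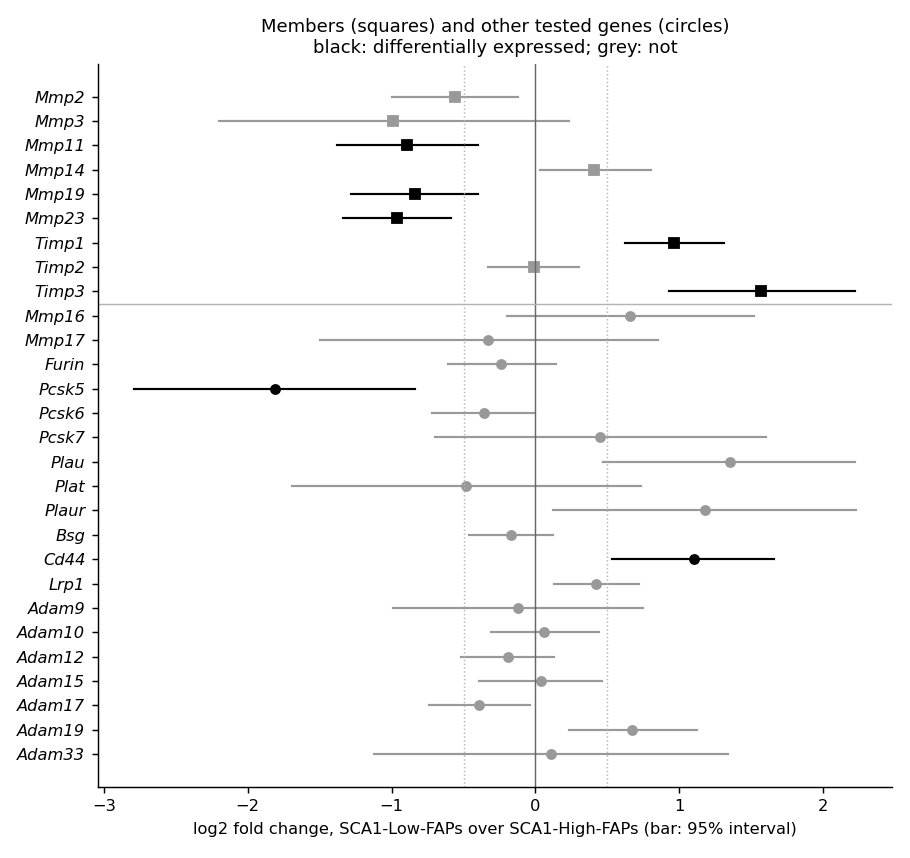
log2 fold change (SCA1-Low-FAPs relative to SCA1-High-FAPs) for the 9 tested proteases and inhibitors (squares) and other tested genes of the family, of activation and clearance and of the ADAM sheddases (circles). Bars are 95% intervals, dotted lines stand at 0.5 and -0.5, and black marks differentially expressed genes. Timp3 at 1.57 and Timp1 at 0.96 lie right of 0, and Mmp23 at -0.96, Mmp11 at -0.89 and Mmp19 at -0.84 lie left of it.

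**Figure D3:**
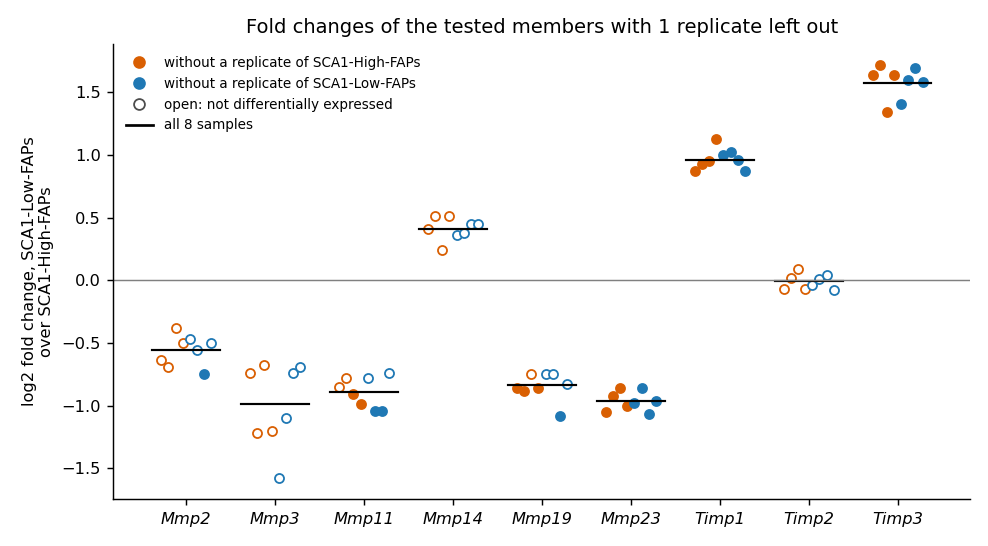
log2 fold change of the 9 tested genes with 1 sample left out (8 fits a gene). Filled points are differentially expressed, open points are not, and black lines show the fit to all 8 samples. Timp1 (0.87 to 1.13), Timp3 (1.34 to 1.72) and Mmp23 (-1.07 to -0.86) stay filled, while Mmp11 and Mmp19 each have 4 open points.

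The order of levels was read from sample ranges. These 3′ libraries count transcript ends, so the CPM of one gene can be set beside that of another without a length correction, though the efficiency of priming may differ between genes. In SCA1-High-FAPs, Timp2 stood above all others, and Timp3, Timp1, Mmp14 and Mmp2 followed, with each overlapping its neighbour. Mmp23 came next, then Mmp11 and Mmp19, which overlapped, then Mmp3 and Reck. In SCA1-Low-FAPs, Timp3 and Timp2 overlapped at the top, followed by Timp1, Mmp14 and Mmp2 with no overlap between neighbours, and then by Mmp23, Mmp19 and Mmp11, which overlapped.

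Summed over the 6 proteases, mRNA was nearly level between the groups, while summed inhibitor mRNA was not. The protease sum was 1267 ± 86.8 CPM in SCA1-High-FAPs (1169.5, 1241, 1281 and 1378) and 1127 ± 89.7 CPM in SCA1-Low-FAPs (1138, 1172, 1199.9 and 998), and the samples overlapped. The inhibitor sum was 2918 ± 192 CPM (2647, 3101, 2956 and 2967) and 4620.5 ± 616 CPM (5248, 4384, 3872 and 4978), with no overlap. The sums carry no test, since the genes were chosen with earlier results of these data known.

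The balance, log2 of protease over inhibitor mRNA, was -1.18, -1.32, -1.21 and -1.11 in SCA1-High-FAPs against -2.20, -1.90, -1.69 and -2.32 in SCA1-Low-FAPs. Its mean was -1.20 ± 0.09 and -2.03 ± 0.29, a difference of -0.83 with no overlap. The difference was larger when an abundant gene was left out, at -1.38 without Mmp14 and -1.49 without Timp2, both without overlap. Timp1 and Timp3, the inhibitors that were differentially expressed, were not left out. How far the difference depends on them was therefore not tested. Expressed the other way, there were 2.31 ± 0.144 inhibitor transcripts per protease transcript in SCA1-High-FAPs against 4.14 ± 0.803 in SCA1-Low-FAPs. In both groups inhibitor mRNA was in excess. These are ratios of mRNA and not of active proteins.

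**Figure D4:**
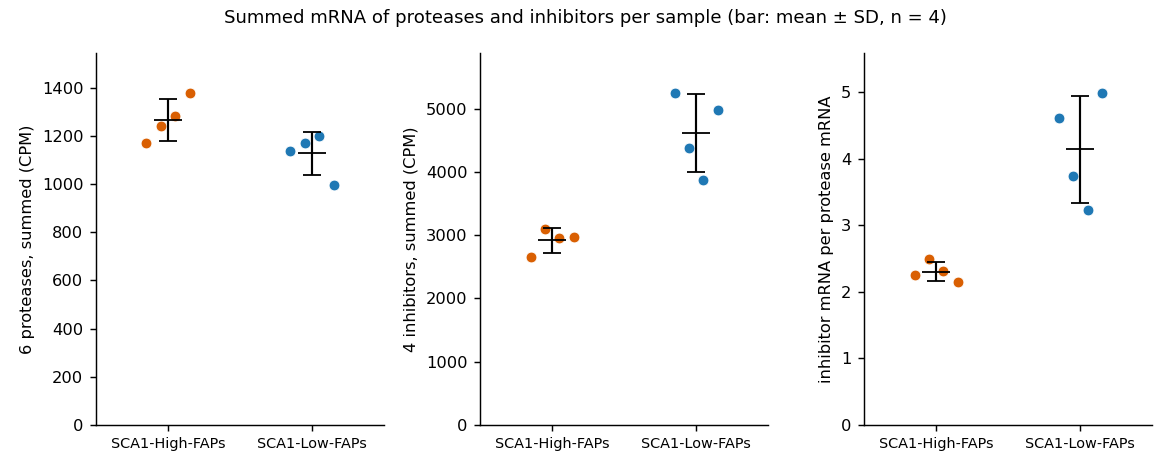
Summed CPM of the 6 proteases (left) and of the 4 inhibitors (middle) and the ratio of inhibitor to protease mRNA (right) in each sample of the groups. Points are samples and bars are mean ± SD (n = 4). The protease sums overlap, while the inhibitor sums (2647 to 3101 against 3872 to 5248 CPM) and the ratios (2.15 to 2.5 against 3.23 to 4.99) do not.

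The make-up of both pools differed as well. Timp2 was 59.6 ± 8.56% of inhibitor mRNA in SCA1-High-FAPs against 37.4 ± 1.55% in SCA1-Low-FAPs, and Timp3 was 20.4 ± 7.48% and 37.8 ± 5.21%, with no overlap for either. Timp1 took 19.8 ± 4.12% and 24.7 ± 3.86%, and its samples overlapped. Of protease mRNA, Mmp14 was 38.9 ± 10.3% in SCA1-High-FAPs against 58.3 ± 6.54% in SCA1-Low-FAPs with no overlap, and Mmp2 was 32.6 ± 8.74% and 24.8 ± 4.71% with overlap. Shares of one pool add to a whole, so a higher share of Timp3 lowers that of Timp2 at the same Timp2 level.

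**Figure D5:**
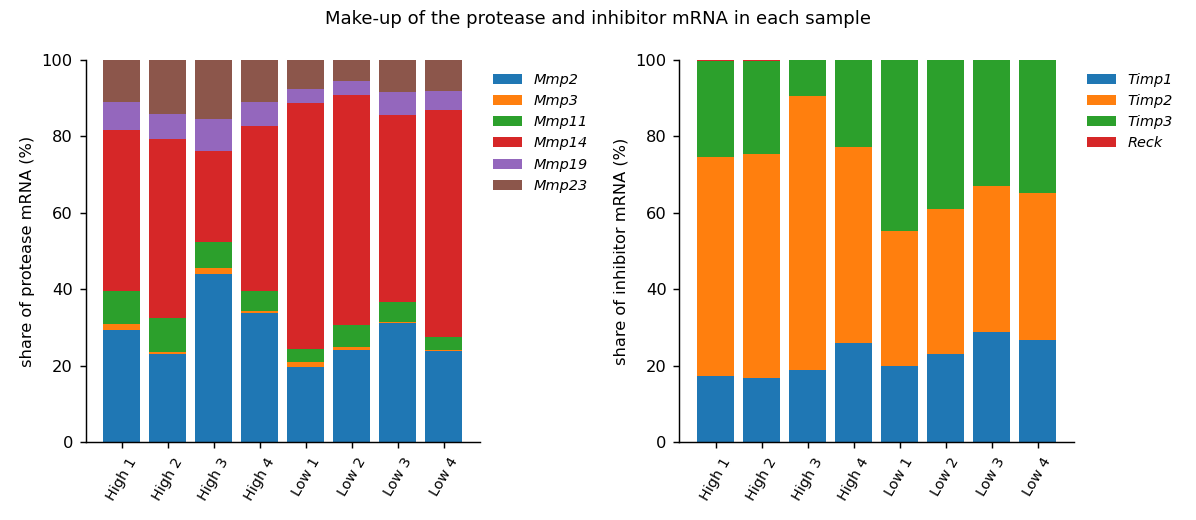
Share of each protease in the summed mRNA of the 6 proteases (left, %) and of each inhibitor in that of the 4 inhibitors (right, %), per sample. High 1 to 4 are the SCA1-High-FAPs samples and Low 1 to 4 the SCA1-Low-FAPs samples. Mmp14 takes 23.8 to 46.6% of protease mRNA in SCA1-High-FAPs against 49 to 64.4% in SCA1-Low-FAPs, and Timp3 takes 9.28 to 25.3% and 32.9 to 44.7% of inhibitor mRNA.

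Of the pairs that are known to bind, none of those planned separated the groups. The log2 ratio of Mmp14 to Timp2 was -1.86 ± 0.64 in SCA1-High-FAPs against -1.40 ± 0.20 in SCA1-Low-FAPs, with overlap, and replicate 3 of SCA1-High-FAPs was the lowest at -2.80. For Mmp2 to Timp2 the ratio was -2.10 ± 0.41 and -2.64 ± 0.49, and for Mmp3 to Timp1 it was -5.57 ± 1.13 and -7.62 ± 1.31, both with overlap. The ratio of Mmp14 to Timp3, a pair added after its values were seen, was -0.21 ± 0.27 and -1.40 ± 0.26, with no overlap.

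The rest of the family contributed little. The files held 22 Mmp genes, of which 6 (Mmp1b, Mmp7, Mmp20, Mmp21, Mmp24 and Mmp25) had no count in any sample, and the 6 proteases above made up 97.1 to 98.7% of all Mmp CPM in each sample. Mmp16 (0.66, SE 0.41, adjusted p = 0.387) and Mmp17 (-0.33, SE 0.56, adjusted p = 0.807), both membrane-type enzymes, were the only others that passed the filter. Over all 8 samples, Mmp9 had 67 counts, Mmp28 56, Mmp15 42, Mmp13 18, Mmp8 17, Mmp12 3, and Mmp10 and Mmp27 1 each. Timp4, the remaining TIMP, had 60 counts in SCA1-High-FAPs, of which 32 were in replicate 3, and 12 in the SCA1-Low group, or 6.3 ± 4.97 and 1.02 ± 1.29 CPM, and the groups overlapped. It fell under the filter. With no filter its log2 fold change was -2.48 (SE 0.90, edgeR adjusted p = 0.0776), the opposite sign to Timp1 and Timp3.

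Other genes of the pathway were taken from lists of the rest of the family, activation and clearance, ADAM sheddases, AP-1 factors and inducing cytokines. Of 54 listed genes, 53 were in the files, 31 were tested and 3 were differentially expressed, 1 higher in SCA1-High-FAPs and the other two in the SCA1-Low group. This is 9.68% of those tested, near the 7.68% of all tested genes, and is not read as a result about the lists. The samples of the groups did not overlap for 6 of the 31 (19.4%), which were Adam19, Cd44, Fosl1, Lrp1, Pcsk5 and Plau, against 14.1% of all tested genes. The median log2 fold change of the 31 was -0.17, beside 0.000291 over all genes tested. No gene of the rest of the family, of the ADAM sheddases or of the cytokines was among the 3.

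Pcsk5, a proprotein convertase that cleaves secreted proproteins, had 57.9, 57, 71.8 and 90.9 CPM in SCA1-High-FAPs against 9.18, 11.4, 44.4 and 12.1 CPM in SCA1-Low-FAPs (log2 fold change -1.81, SE 0.44, adjusted p = 0.029). Replicate 3 of SCA1-Low-FAPs was far above its group, and without it the value was -2.67 (adjusted p = 2.5e-05). Cd44, a hyaluronan receptor that can hold metalloproteinases at the cell surface, had 228, 145, 83.5 and 217 CPM against 323, 429, 383 and 308 CPM (1.10, SE 0.26, adjusted p = 0.0216). Fosl1, an AP-1 factor, had 20.7, 18.1, 11.7 and 40.3 CPM against 54.6, 59.4, 48.8 and 42.8 CPM (1.16, SE 0.31, adjusted p = 0.0278). Leaving out a sample cost Pcsk5 its call in 6 of 8 fits, Fosl1 in 5 and Cd44 in 2, and 0 of the 3 passed at an adjusted p under 0.01.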

How the data were processed

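RNA from 4 SCA1-High-FAPs and 4 SCA1-Low-FAPs samples was sequenced with QuantSeq 3′ mRNA-Seq FWD libraries. The deposited values are raw counts of uniquely assigned reads per Ensembl gene. Per the labels and the study's methods, the authors aligned reads to mm10 with STAR and counted them with HTSeq on Ensembl release 93. The strand setting is not given in the sources used here, and no molecular identifiers are mentioned. Of 31053 gene identifiers, 30934 matched a symbol, and 15873 had a count.

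Genes were tested with edgeR 4.0.16 (R 4.3.3): filterByExpr (minimum count 10, minimum total 15), TMM, robust quasi-likelihood test, Benjamini-Hochberg adjustment over all 10181 tested genes. CPM used the totals of tested genes scaled by TMM. SE was the log2 fold change over the root of F. There were fewer mice than samples, and the labels do not say which samples came from one mouse. The fit took the samples as independent, so its p-values make no allowance for a shared mouse. The fit was tested on simulated data. Alternatives were DESeq2 1.42.0, another scaling (RLE), other filters, a replicate block, each sample left out and an adjusted p under 0.01. The named genes were all 10 genes, other Mmp and Timp genes with their counts, and listed pathway genes that passed the test. The genes and lists were chosen with earlier results of these data known. No protein sequence was used here.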

Additional observations from a re-analysis of the deposited data

How the results depend on the processing

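Calls of the 10 genes numbered 5 in the fit as reported, and also 5 with RLE scaling, with a minimum of 10 counts in every sample, with DESeq2 and with the replicate block, 6 with no filter, 3 at an adjusted p under 0.01 and 3 to 6 with a sample left out. They fell to 3 without replicate 1 or 4 of SCA1-Low-FAPs, and rose to 6 without its replicate 3. Other pathway genes numbered 3, then 6 with no filter, 5 with DESeq2, 4 with the replicate block, 0 at an adjusted p under 0.01 and 0 to 5 with a sample left out. Over all genes 782 were called, 1065 with DESeq2, 1052 with no filter, 697 with the replicate block, 307 at an adjusted p under 0.01 and 410 to 1017 with a sample left out. The deviations of equally numbered samples correlated at -0.0502 to 0.00673, so the numbers were not taken to pair the samples. Of the 8 samples, 0 correlated best with their own number (best values 0.131 to 0.255, with other numbers). The best matches were mutual. Replicates 1, 2, 3 and 4 of SCA1-High-FAPs matched replicates 2, 1, 4 and 3 of SCA1-Low-FAPs (0.164, 0.131, 0.255 and 0.137). Whether these pairs share a mouse or a batch was not tested, and no fit blocked on them. Samples that share a mouse are thus fitted as independent in the fit as reported. The balance difference of -0.83 moved to -1.38 without Mmp14, to -1.49 without Timp2 and between -0.94 and -0.73 with a sample left out. Timp2, at -0.01, turned sign with no filter (0.00) and with a sample left out (-0.08 to 0.09). Reck and the untested Mmp genes had few counts. The cause of the changes was not tested.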
